A study of Homo sapiens with 18 samples.

Results

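NF-Y is a transcription factor built from the products of NFYA, NFYB and NFYC. The NFYB and NFYC proteins pair through histone-fold domains, and the NFYA protein joins the pair and contacts the CCAAT box, a short sequence found in many promoters, among them those of cell cycle, sterol synthesis and protein folding genes. All of the subunits are needed for the factor to bind DNA, and NFYA is made as a long and a short isoform that differ in the glutamine-rich stretch used for activation. Described here are these 3 genes of the 34912 with a row in the deposited tables, and their 31 annotated transcripts of 164776. The members were taken by gene symbol: 2 transcripts belong to NFYA, 5 to NFYB and 24 to NFYC.

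RNA was sequenced from LNCaP, an established human prostate cancer line that responds to androgen. Every group was transfected with a pool of siRNAs and kept for 48 h in medium with 5% charcoal-stripped serum, which lacks steroids. The groups were control siRNA, siRNA against NFYA (siNFYA) and siRNA against KLF5 (siKLF5), a zinc-finger factor outside the NF-Y complex, each with vehicle (96% ethanol) or with 10 nM R1881, a synthetic androgen, for 24 h. The labels give 3 samples per group, 18 in all, and 17 were analysed. Replicate 1 of siKLF5 with vehicle was not analysed here, so that group has n = 2. No source used here gives the sites that the siRNA pools target.

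Library totals ran from 4416653 to 6872421 estimated counts, and each subunit drew between 126 and 560 of them in a library, so that counting error alone was 4.23% to 8.91% of a subunit's value. Luminal prostate markers were present (8 of 8 above 1 CPM, the count per library scaled to a common size by the trimmed mean of M-values, TMM; their sum was 3620 to 15700 CPM). Basal markers were near 0 (0 of 3 above 1 CPM, 1 of them at 0 everywhere, sum 0 to 0.468 CPM). Neuroendocrine markers summed to 12.9 to 44.4 CPM with 2 of 3 above 1 CPM, stromal markers to 10.9 to 19.5 CPM with 2 of 4, and blood and endothelial markers to 8.57 to 16.3 CPM with 2 of 4. The siRNA against KLF5 lowered mean KLF5 from 4.16 to 1.98 CPM with vehicle and from 28.4 to 12.8 CPM with R1881. Mitochondrial transcripts took 1.33% to 2.07% of counts in control libraries and 2.20% to 3.00% in the libraries with siNFYA or siKLF5, and retained-intron transcripts took 1.96% to 2.23% and 2.28% to 3.05%. One library stood apart: replicate 3 of siNFYA vehicle had a chi-square per degree of freedom of 9.93 and 13.2 against the other replicates of its group, where the other pairs of replicates reached at most 3.47, and AC010970.1 took 2.85% of its counts against at most 0.424% in any library of the other groups. The part of these shares and of that library's makeup in the results was not tested. Values without the library are given for NFYA against control and for gene lists whose siNFYA calls against control changed.

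The stretch that separates the NFYA isoforms is exon 3 of NFYA-201 (ENST00000341376), the long form, which lies on the plus strand at chr6:41080811-41080897 of GRCh38 within the gene (ENSG00000001167, chr6:41072945-41099976). It is 87 bases long, wholly coding, and 29 codons in frame, of which 8 are CAG, so that the annotated coding sequence is 1041 bases in NFYA-201 and 954 bases in NFYA-202 (ENST00000353205), the short form. The GENCODE v29 transcripts are given with the exon in capitals and 15 coding bases on each side, followed by the junction that replaces it in the short form.
NFYA-201, exon 3 and flanks: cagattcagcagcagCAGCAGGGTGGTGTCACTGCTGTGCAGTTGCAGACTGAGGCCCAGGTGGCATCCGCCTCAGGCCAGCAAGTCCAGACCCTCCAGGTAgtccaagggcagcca
NFYA-202, junction: cagattcagcagcaggtccaagggcagcca
NFYA-202 also ends earlier, at position 41097950 against 41099976, and is annotated at 1660 bases in 9 exons against 3811 bases in 10. Reads from the exons that the isoforms share cannot tell them apart, and the deposited tables carry no estimate of how uncertain the split is.

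NFYC (ENSG00000066136, plus strand, chr1:40691648-40771603) starts at several places, and RefSeq's promoter table for GRCh38.p14 holds 3 windows for it. All 3 hold NF-Y's own motif before the first transcript start, the third once. The windows at the upstream start sites are shown because the NFYC transcripts with most of the TPM begin at or after them; each is cut where the first GENCODE transcript begins, and capitals mark CCAAT, searched on both strands (as CCAAT or ATTGG).
NFYC, chr1:40691454-40691647: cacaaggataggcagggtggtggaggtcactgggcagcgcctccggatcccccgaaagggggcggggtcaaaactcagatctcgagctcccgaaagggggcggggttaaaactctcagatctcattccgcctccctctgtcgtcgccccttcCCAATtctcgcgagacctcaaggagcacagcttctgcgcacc
NFYC, chr1:40709116-40709356: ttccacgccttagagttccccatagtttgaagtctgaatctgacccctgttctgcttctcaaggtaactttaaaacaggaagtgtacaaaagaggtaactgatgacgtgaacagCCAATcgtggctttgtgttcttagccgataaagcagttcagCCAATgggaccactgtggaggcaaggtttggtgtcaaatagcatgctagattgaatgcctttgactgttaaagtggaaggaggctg
The upstream window holds 1 CCAAT on the plus strand, 37 bases before the transcript start. The next window holds 2, both on the plus strand, 122 and 81 bases before the start. NFYA has 1 window, and its 221 bases before the first transcript start hold 0 matches, which says only that these letters are not in them. The whole NFYA window of 300 bases holds 1 match, which lies inside the transcript. NFYB (ENSG00000120837, minus strand, chr12:104117077-104138289) is named without a window. Of all 35116 RefSeq windows of 300 bases, 34.6% hold CCAAT on either strand, so a match by itself sets no gene apart.

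NFYA mRNA was lower in every siNFYA library than in every control or siKLF5 library given the same treatment, and about 65% of the control level remained. With vehicle the control libraries held 68.3, 71.2 and 73.3 CPM and the siNFYA libraries 48.0, 44.0 and 46.7 CPM. With R1881 the controls held 84.5, 89.7 and 86.6 CPM and the siNFYA libraries 58.7, 56.9 and 53.6 CPM. The siKLF5 libraries, at 74.5 and 71.6 CPM with vehicle and 79.0, 88.8 and 87.7 CPM with R1881, lay at the control level.

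In edgeR's quasi-likelihood test with Benjamini-Hochberg adjustment, siNFYA changed NFYA by -0.62 on the log2 scale with vehicle (SE 0.0631, adjusted p = 4.06e-07), a comparison in which 13.5% of all tested genes were called at adjusted p under 0.05. With R1881 the difference was -0.62 as well (SE 0.0615, adjusted p = 2.37e-07), and 5.96% of genes were called. Against siKLF5 in place of control siRNA, NFYA was lower by -0.66 with vehicle (adjusted p = 1.03e-06, 5.99% of genes called) and by -0.59 with R1881 (adjusted p = 1.78e-06, 3.82% called). The interaction of siNFYA with R1881 was -0.00 (SE 0.0903, adjusted p = 0.998, 0.722% of genes called), so the loss of NFYA mRNA did not differ detectably between treatments, within an interval of -0.18 to 0.18 (2 SE each side). Without replicate 3 of siNFYA vehicle the differences were -0.64 with vehicle (adjusted p = 1.56e-06, edgeR) and -0.60 with R1881 (adjusted p = 4.39e-07, edgeR). In bulk RNA, fewer cells holding a transcript and less of it in each cell cannot be told apart, and protein was not measured.

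**Figure D1:**
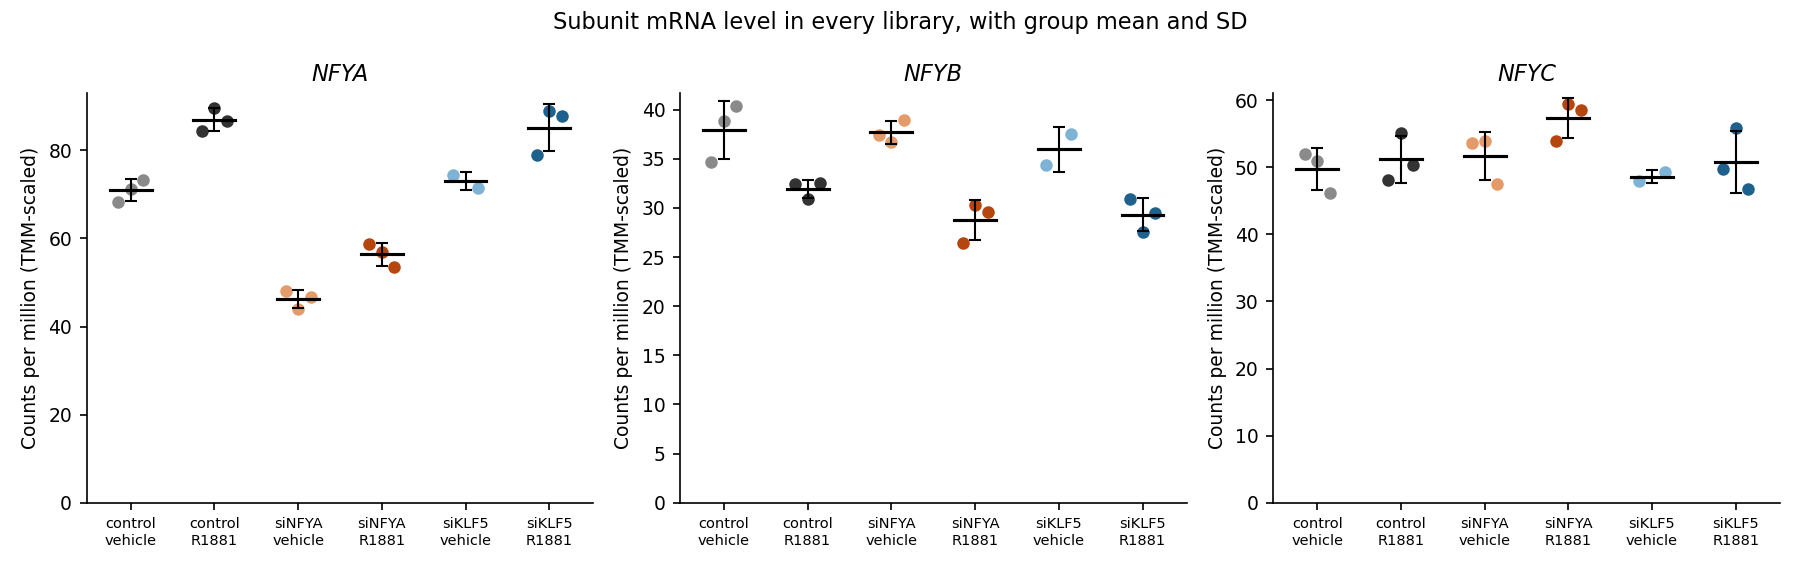
Level of NFYA, NFYB and NFYC in each of 17 libraries, in TMM-scaled CPM, by siRNA and treatment; points are libraries, the horizontal line is the group mean and the bar 1 SD (siKLF5 vehicle has 2 libraries). NFYA drops with siNFYA in both treatments, NFYB is lower in each R1881 group, and NFYC groups next to each other in the order of means overlap. For NFYC, the siNFYA libraries with R1881 lie above the control and siKLF5 libraries with vehicle.

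R1881 raised NFYA relative to the other genes under all of the siRNAs. With control siRNA the group means were 70.9 ± 2.48 CPM with vehicle and 86.9 ± 2.61 CPM with R1881 (SD, n = 3 each), a difference of 0.29 on the log2 scale (SE 0.0562, adjusted p = 8.05e-05, edgeR). It was 0.29 with siNFYA (SE 0.0689, adjusted p = 8.30e-04) and 0.22 with siKLF5 (SE 0.0652, adjusted p = 0.00556), and in none of these did the R1881 and vehicle libraries overlap. R1881 changed a large part of the transcriptome, with 62.9% of genes called under control siRNA, 62.1% under siNFYA and 59.2% under siKLF5, so a call is the common outcome in these comparisons. The rise is also relative to TMM: with library totals alone the median of all genes moved to between -0.25 and -0.24 with R1881, NFYA's own difference became 0.05, 0.06 and -0.01, and it passed under none of the siRNAs, while its distance from that median stayed 0.30, 0.31 and 0.23. On log2(TPM + 0.5) (TPM divides each transcript's count by its length and sets every library to the same sum, without TMM) limma gave 0.14, 0.11 and 0.09, and none passed.

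Ordered by mean, NFYA stood at 86.9 CPM in control with R1881, 85.2 in siKLF5 with R1881, 73.0 in siKLF5 with vehicle, 70.9 in control with vehicle, 56.4 in siNFYA with R1881 and 46.2 in siNFYA with vehicle. Neighbours in this order overlapped in the pair of R1881 groups at the top and in the pair of vehicle groups after it, and were apart elsewhere. The siNFYA libraries with R1881 thus stayed below the control libraries with vehicle.

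**Figure D2:**
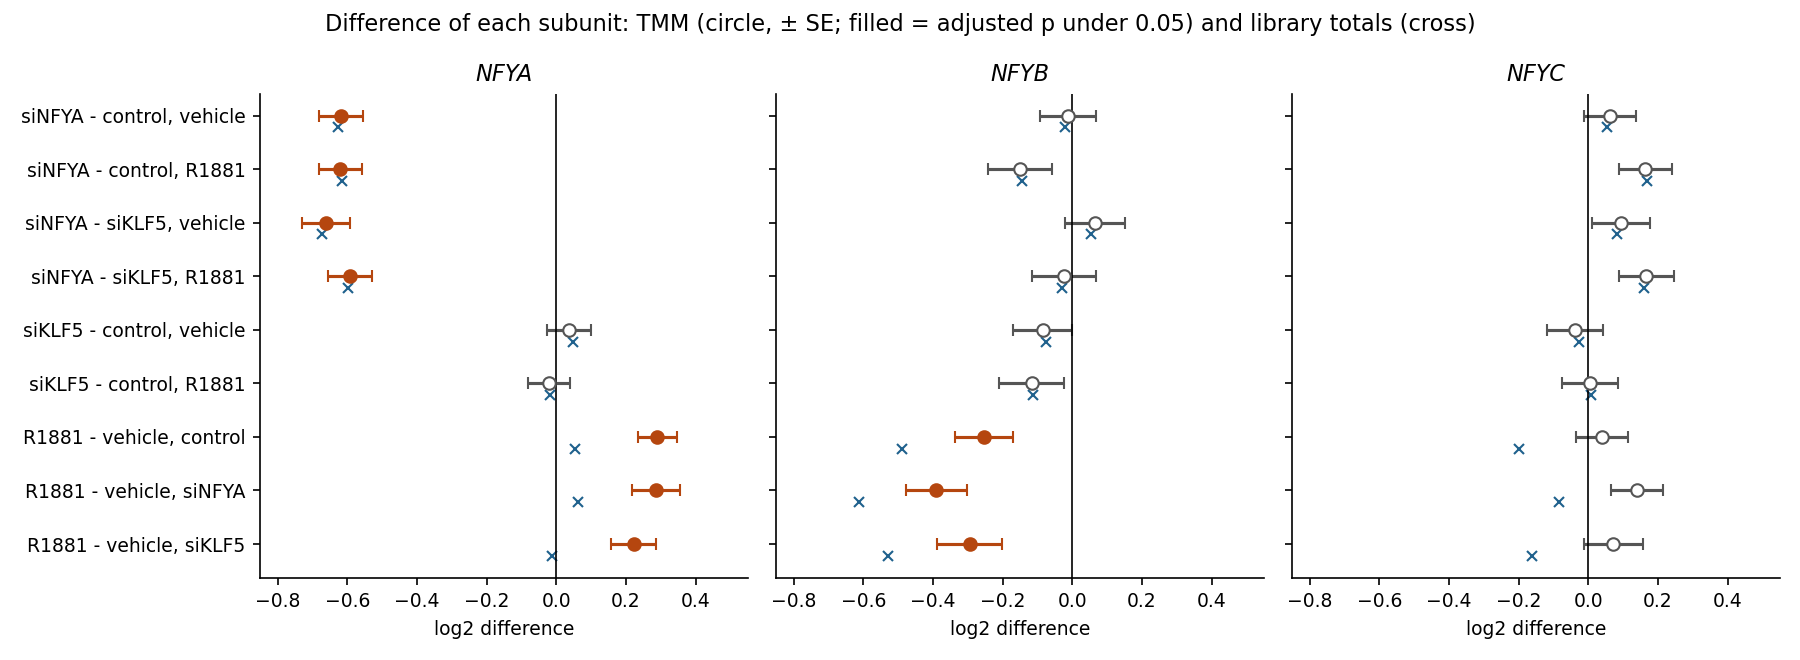
Log2 difference of each subunit in 9 comparisons; circles are TMM-scaled edgeR estimates with their SE, filled where the adjusted p was under 0.05, and crosses are the same difference scaled by library totals. The crosses follow the circles between siRNAs but lie about 0.24 lower in the R1881 comparisons, where NFYA moves to near 0 and NFYC below it.

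Both NFYA isoforms had lower values with siNFYA, and the long one passed the test. NFYA-201 held 25.2, 25.2 and 26.0 TPM in control vehicle and 18.0, 16.2 and 16.4 TPM in siNFYA vehicle. With R1881 it held 27.6, 27.6 and 27.3 TPM in control and 18.8, 17.5 and 17.5 TPM in siNFYA. No siNFYA library reached a control library, and the transcript-level test called the isoform lower in both treatments, by -0.58 with vehicle (SE 0.0581, adjusted p = 0.00314, 0.454% of transcripts called) and by -0.58 with R1881 (SE 0.0579, adjusted p = 0.00206, 0.572% called). It was also lower than with siKLF5, by -0.69 with vehicle (adjusted p = 0.00164, 0.166% called) and -0.54 with R1881 (adjusted p = 0.00635, 0.104% called). NFYA-201 was the single member transcript called in each of these 4 comparisons, of 13 tested against control and 15 tested against siKLF5.

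NFYA-202, the form without exon 3, held 11.5, 14.3 and 14.6 TPM in control vehicle against 5.96, 6.94 and 8.68 TPM in siNFYA vehicle. With R1881 it held 12.9, 18.1 and 15.8 TPM in control against 9.66, 8.11 and 6.60 TPM in siNFYA. The libraries were again apart, but this shorter transcript rests on 31.6 to 38.6 estimated counts a library in siNFYA vehicle, where NFYA-201 had 180 to 236. Its differences of -0.87 (SE 0.228, adjusted p = 0.178) and -0.89 (SE 0.227, adjusted p = 0.161) did not pass over all transcripts.

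The long form made up 60.2% to 75.1% of NFYA TPM in the 17 libraries. Its share was 65.5% ± 2.69 in control vehicle and 70.2% ± 4.85 in siNFYA vehicle (SD, n = 3 each). With R1881 it was 64.0% ± 3.96 in control and 69.0% ± 3.28 in siNFYA. Averaged over the treatments the share differed by 4.86 percentage points between siNFYA and control (two-sided exact permutation test within treatment, p = 0.05, adjusted p = 0.6 over 12 share tests; the smallest p this design allows is 0.005). The usage test of edgeR, which asks whether a transcript moves apart from its gene, called neither NFYA isoform in any comparison, with 0 of 22 tests at an unadjusted p under 0.05 (limma's version had 2 of 22 and none after adjustment). The usage calls over all transcripts were few: 0.223% with siNFYA in vehicle, 0.283% with siNFYA in R1881, and 0.102% and 0.0716% for siNFYA against siKLF5.

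**Figure D3:**
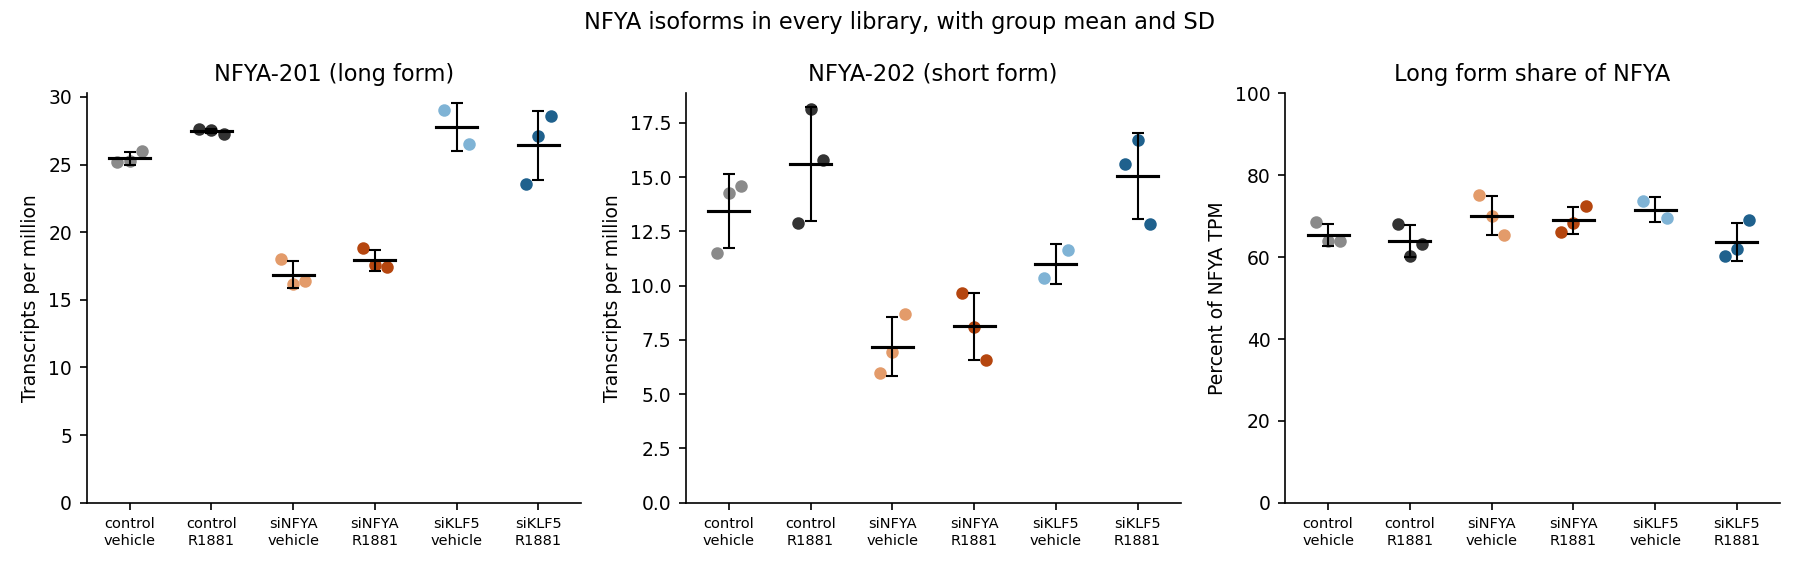
TPM of the long and short NFYA isoforms and the long form's percent of NFYA TPM in each of 17 libraries; lines are group means and bars 1 SD. Both isoforms are lower in the siNFYA groups, and the share stays between 60.2% and 75.1%. For the share, siKLF5 vehicle lies above both control groups and siKLF5 R1881, and all other pairs of groups overlap.

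With R1881, NFYA-201 was called higher under control siRNA (0.21, SE 0.0571, adjusted p = 0.0297) and siNFYA (0.21, SE 0.0587, adjusted p = 0.0399), where 16.3% and 16.9% of transcripts were called. These calls were fragile: the first was lost in 3 of 4 alternatives (0.03 to 0.21, adjusted p up to 0.827) and in 6 of 12 edgeR refits that left out a library (adjusted p up to 0.0987). The second was lost in 4 of 4 alternatives (0.04 to 0.22, adjusted p 0.0506 to 0.809) and in 4 of 12 refits (adjusted p up to 0.189). Under siKLF5 it was 0.05 (adjusted p = 0.825, 12.4% called) while NFYA-202 was 0.57 (SE 0.216, adjusted p = 0.144). The long form share under siKLF5 went from 73.7% and 69.5% with vehicle to 60.2%, 61.9% and 69.0% with R1881, groups that did not overlap. Over all siRNAs the share differed by -3.56 points with R1881 (exact permutation test, adjusted p = 0.630).

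NFYB, which encodes one of the histone-fold subunits, fell with R1881 under each siRNA and did not pass any comparison between siRNAs. With control siRNA the vehicle libraries held 34.7, 38.8 and 40.4 CPM and the R1881 libraries 32.4, 30.9 and 32.5 CPM. With siNFYA they held 37.4, 36.7 and 39 CPM against 26.5, 30.3 and 29.6 CPM. With siKLF5 they held 34.3 and 37.6 CPM against 30.9, 27.6 and 29.5 CPM. In each of the 3 pairs every R1881 library lay below every vehicle library.

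The differences were -0.25 with control siRNA (SE 0.0831, adjusted p = 0.0105), -0.39 with siNFYA (SE 0.0886, adjusted p = 4.94e-04) and -0.29 with siKLF5 (SE 0.0943, adjusted p = 0.0101), in edgeR. The drop did not pass as different between siNFYA and control (interaction -0.14, SE 0.122, adjusted p = 0.726). Without replicate 3 of control vehicle the first difference was -0.20 (adjusted p = 0.0582). Without replicate 2 of siKLF5 R1881 or replicate 3 of siKLF5 vehicle the last was -0.25 and -0.23 (adjusted p = 0.0553 and 0.0916), and DESeq2 gave -0.30 (adjusted p = 0.0987).

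Between siRNAs, NFYB differed by -0.01 with siNFYA in vehicle (adjusted p = 0.946) and by -0.15 in R1881 (adjusted p = 0.396), where the siNFYA libraries nevertheless lay below the control libraries. Their intervals of 2 SE each side were -0.17 to 0.15 and -0.33 to 0.03. The means fell in the order 38.0 CPM in control, 37.7 in siNFYA and 36.0 in siKLF5 with vehicle, then 31.9 in control, 29.3 in siKLF5 and 28.8 in siNFYA with R1881.

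Most NFYB RNA came from NFYB-205 (ENST00000551727) and NFYB-201 (ENST00000240055), which share a coding sequence of 621 bases and differ outside it. NFYB-205, of 1727 bases, held 11.1 to 20.8 TPM and NFYB-201, of 3512 bases, 4.37 to 9.10 TPM. Their sum was 24.2 to 28.7 TPM in the 8 vehicle libraries and 17.0 to 23.7 TPM in the 9 R1881 libraries, with no overlap. Added up after its values were seen, this sum has no test of its own.

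Beside them stand NFYB-202 (586 bases, retained intron), at 0 to 12.7 TPM, and NFYB-204, at 0 to 7.25 TPM. Their sum ran from 0 to 15.0 TPM and varied widely within groups: the 3 control vehicle libraries held 1.56, 12.1 and 14.1 TPM. In siNFYA the vehicle libraries, at 13.6, 14.5 and 12.0 TPM, lay above the R1881 libraries, at 2.22, 8.61 and 3.32 TPM, while the vehicle and R1881 libraries overlapped under control siRNA and siKLF5. Its coefficient of variation over the 17 libraries was 65.0%, against 17.0% for NFYB-201 and NFYB-205 together. These short transcripts rest on means of 7.35 and 5.39 estimated counts a library, and they spread the TPM of the whole gene, which was 28.5, 39.9 and 42.8 in control vehicle, far more than its counts.

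In the transcript test NFYB-201 was called lower with R1881 under siKLF5 (-0.71, SE 0.185, adjusted p = 0.0357), from 8.21 and 7.88 TPM to 4.37, 4.71 and 4.54 TPM. In that comparison 12.4% of transcripts were called. The same transcript had -0.38 under control siRNA (adjusted p = 0.186) and -0.49 under siNFYA (adjusted p = 0.0823). Leaving out 1 library at a time gave -0.74 to -0.68 under siKLF5 with adjusted p up to 0.178. The call was fragile: it was lost in 8 of 11 of these refits and in 1 of 4 alternatives. The difference of the response from that under control siRNA did not pass for siKLF5 (-0.29, SE 0.251, adjusted p = 1.0) or siNFYA (-0.11, SE 0.241, adjusted p = 1.0), in edgeR.

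NFYC, the partner of NFYB in the histone-fold pair, differed little between the groups. Its libraries ran from 46.2 to 59.5 CPM, and the group means from 48.6 ± 0.961 CPM in siKLF5 vehicle (SD, n = 2) to 57.3 ± 2.98 CPM in siNFYA R1881 (SD, n = 3). Every pair of neighbouring groups in the order of means overlapped. edgeR called NFYC in 0 of 11 comparisons, with 2 at an unadjusted p under 0.05, and DESeq2 in 0 with 0 at that p.

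Those 2 were siNFYA with R1881 against control (0.16, SE 0.0760, adjusted p = 0.237; 53.9, 59.5 and 58.5 CPM against 48.1, 55.0 and 50.4 CPM) and against siKLF5 (0.17, SE 0.0787, adjusted p = 0.288). With R1881 the differences were 0.04, 0.14 and 0.07 under control siRNA, siNFYA and siKLF5 on the TMM scale. They were -0.20 (adjusted p = 0.0239), -0.08 and -0.16 with library totals, and limma on TPM gave -0.26 under siKLF5 (adjusted p = 0.0205), so the direction for NFYC depends on the scaling.

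NFYC RNA was split over many transcripts. The leading one, NFYC-213 (ENST00000447388, 1950 bases), held 13.0 to 25.8 TPM, and NFYC-202, NFYC-205, NFYC-212 and NFYC-213 share a single coding sequence of 1005 bases. Together these 4 held 21.1 to 35.3 TPM and 51.9% of NFYC TPM on average. NFYC-216 (ENST00000467203), a retained-intron transcript of 943 bases with no annotated coding sequence, was second with 7.19 to 20.2 TPM. It held 17.6, 18.7 and 13.6 TPM in control vehicle and 12.7, 12.0 and 7.19 TPM in siNFYA vehicle, a difference of -0.61 that did not pass (SE 0.293, adjusted p = 0.515). The value of 7.19 TPM came from replicate 3, the library that stood apart. With R1881 the difference between siNFYA and control was -0.01 (SE 0.291).

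Of the 24 transcripts, 12 had a mean of at least 0.5 TPM, 9 of these were at 0 in some library, and 3 others were at 0 in all 17. Besides those named, NFYC-203 had a mean of 3.56 TPM, NFYC-214 1.75, NFYC-215 1.66, NFYC-201 1.28, NFYC-210 1.18, NFYC-224 0.678, NFYC-220 0.626 and NFYC-209 0.582 TPM. The other 12, like the remaining NFYB transcript, lay at or below a mean of 0.481 TPM.

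**Figure D4:**
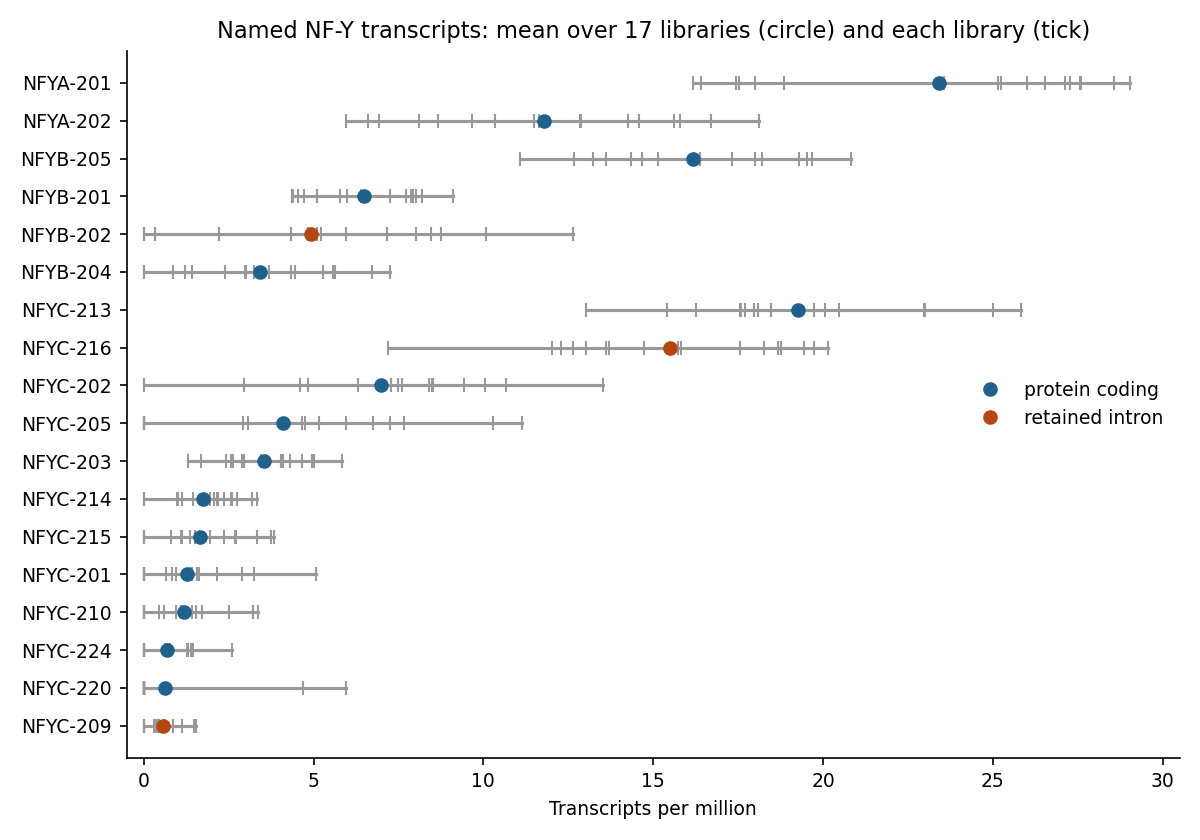
TPM of the 18 NF-Y transcripts with a mean of at least 0.5 TPM; circles are means over 17 libraries, coloured by annotated type, and ticks are single libraries. NFYA-201, NFYC-213, NFYB-205 and NFYC-216 lead, and 11 of the 18 are at 0 in some library.

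The single member called by usage was NFYC-205 (ENST00000372654, 1455 bases). It was at 0 estimated counts in all 3 siKLF5 libraries with R1881 and at 30.3 and 59.2 counts in the siKLF5 vehicle libraries. With a floor of 3 counts over the R1881 group, the vehicle level was 34.6-fold higher. That figure takes the 0 values as they stand and is no lower bound, because the uncertainty of the isoform split is not known here. The transcript test gave an adjusted p of 0.0340 and the usage test 0.0249, with 12.4% of transcripts called by level and 0.178% by usage. In limma the adjusted p were 0.113 for the transcript and 0.132 for usage, and leaving out 1 library at a time gave up to 0.113 and 0.157. Both calls were fragile: 8 of 11 of these refits lost the transcript call and 6 of 11 the usage call.

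NFYC-205 was also uneven elsewhere: it held 11.1, 3.08 and 7.67 TPM in control vehicle, and it was at 0 in 1 library of siNFYA with vehicle and 1 of siNFYA with R1881. In control R1881 it held 0.0011, 22.6 and 13.4 estimated counts, so 1 library there was near 0 too. In siKLF5 with R1881 the 4 transcripts of its shared coding sequence held 30.1 to 32.0 TPM together, against 27.4 and 32.1 TPM with vehicle, and NFYC-202 held 13.5, 7.29 and 10.1 TPM against 8.48 and 2.95 TPM. The usage test called 0.380% of transcripts for R1881 under control siRNA and 0.408% under siNFYA, and none of them was a member. For siKLF5 against control, NFYC-205 with R1881 had an adjusted p of 0.546 by level and 0.144 by usage. No member was called there, where 0.0209% and 0.0836% of transcripts passed with vehicle and R1881, and 0.0545% and 0.0947% by usage.

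By start site, a grouping made after the values were seen and not tested, the 11 NFYC transcripts that begin at chr1:40691648-40692290, after the upstream promoter window shown, held most of the TPM. Their share was 78.9% to 88.6% in control vehicle, 77.3% to 93.3% in control R1881, 67.6% to 73.2% in siNFYA vehicle and 63.4% to 80.4% in siNFYA R1881. It was 77.1% and 78.0% in siKLF5 vehicle and 67.2% to 76.4% in siKLF5 R1881. NFYC-202 and NFYC-203, which begin after the window with 2 CCAAT, held 4.32 to 9.18 TPM in control vehicle and 12.0 to 14.4 TPM in siNFYA vehicle, without overlap. With R1881 they held 2.56 to 11.7 TPM in control and 8.23 to 13.1 TPM in siNFYA, which overlapped. NFYC-202 alone held 0, 6.30 and 7.50 TPM in control vehicle and 4.83, 0 and 7.61 TPM in control R1881. In siKLF5 it held 8.48 and 2.95 TPM with vehicle and 13.5, 7.29 and 10.1 TPM with R1881. High values were thus not particular to siNFYA. The share of retained-intron RNA in the whole library was higher with siNFYA or siKLF5 than with control siRNA, as given above. NFYC-216, a retained-intron transcript that begins in the upstream region, had lower values in siNFYA vehicle than in control vehicle. That difference did not pass, and with R1881 it was -0.01. A link of these values to the start sites was not tested.

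The balance of the subunits was read from TPM, which are per length. NFYC led in 17 of 17 libraries: NFYA was 0.371 to 0.816 of NFYC and NFYB 0.341 to 0.748 of NFYC. That order did not hold for coding RNA alone. Counting protein-coding transcripts only, NFYC held 37.1 to 48.6 TPM, NFYA 23.1 to 45.7 and NFYB 17.8 to 34.7 TPM, and NFYA exceeded NFYC in 6 of 17 libraries.

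The ratio of NFYA to NFYB was the one that crossed 1. It was 0.948, 0.990 and 1.29 in control vehicle and 1.35, 1.58 and 1.62 in control R1881. In siNFYA it was 0.596 to 0.670 with vehicle and 1.00 to 1.43 with R1881, the last of which overlapped the control vehicle libraries. In siKLF5 it was 0.933 and 1.44 with vehicle and 1.18 to 2.26 with R1881.

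On the log2 scale, siNFYA differed from control by -0.78 in NFYA to NFYC (exact permutation test within treatment, two-sided, p = 0.005, the smallest possible, adjusted p = 0.015 over 12 ratio tests) and by -0.58 in NFYA to NFYB (adjusted p = 0.02). R1881 changed NFYA to NFYB by 0.61 and NFYA to NFYC by 0.25 (exact permutation test within siRNA, adjusted p = 0.015 for both). These ratios do not depend on TMM, since both genes come from the same library. Against siKLF5, siNFYA differed by -0.74 in NFYA to NFYC (adjusted p = 0.015) and by -0.68 in NFYA to NFYB (adjusted p = 0.02, exact permutation test), the second of which did not pass in 6 of the 17 analyses that left out a library.

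NFYB to NFYC differed by -0.36 with R1881 (exact permutation test, adjusted p = 0.0674) and by -0.20 with siNFYA (adjusted p = 0.277). From coding transcripts only these were -0.31 (adjusted p = 0.0100) and -0.34 (adjusted p = 0.0225), and from estimated counts the R1881 value was -0.40 (adjusted p = 0.00300), so the call depends on which measure of the transcripts is used. No ratio passed between siKLF5 and control.

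**Figure D5:**
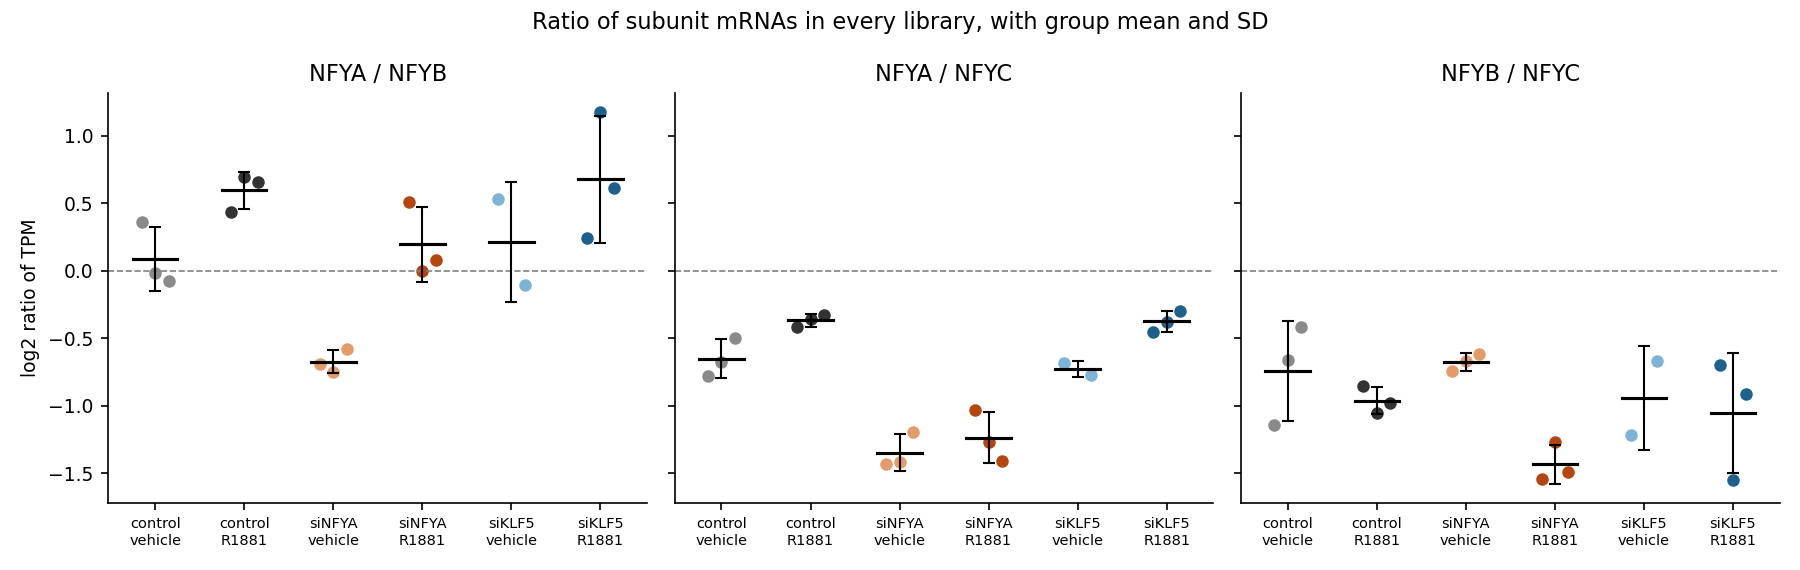
Log2 ratio of TPM between subunits in each of 17 libraries; lines are group means, bars 1 SD, and the dashed line marks equal TPM. NFYA to NFYC is lowest in the 2 siNFYA groups, and NFYA to NFYB is higher with R1881 than with vehicle under each siRNA.

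The siRNA against KLF5 left the 3 subunits without a call. NFYA differed from control by 0.04 with vehicle (interval of 2 SE each side -0.09 to 0.16) and -0.02 with R1881 (-0.14 to 0.10), NFYB by -0.09 and -0.12, and NFYC by -0.04 and 0.01. The adjusted p ran from 0.676 to 0.988 in edgeR, with 1.32% and 1.38% of genes called. Interactions of siKLF5 with R1881 were -0.06, -0.03 and 0.04 for NFYA, NFYB and NFYC (adjusted p 0.947 to 0.985, 0.0157% of genes called).

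OARD1, which runs on the opposite strand and overlaps NFYA over 24843 bases, had 20.7 to 28.1 CPM in the group means. It had -0.17 with siNFYA in vehicle (adjusted p = 0.340) and 0.04 in R1881 (adjusted p = 0.913). R1881 lowered it under control siRNA (-0.45, adjusted p = 0.00116, edgeR), where 62.9% of genes were called. Under siNFYA and siKLF5 the R1881 differences of -0.24 and -0.22 did not pass (adjusted p = 0.0751 and 0.132, edgeR). The library kit marks strand per the labels, but whether the counting used it is not given in the sources used here. NFYC-AS1, MIR30E and MIR30C1, which overlap NFYC, and RNA5SP370, which overlaps NFYB, were not analysed here.

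The genes whose log2 CPM followed each subunit most closely over the 17 libraries were taken from 10607 protein-coding genes with a mean of at least 5 CPM. The correlations describe 17 points that share groups, depth and scaling, and carry no test. For NFYA they were RDH11 (a retinal reductase, r = 0.941), DOCK4 (r = 0.932), TROVE2 (r = 0.908), SIRT1 (a deacetylase, r = 0.907) and CASC4 (r = 0.903). RDH11 held a mean of 716 CPM in control vehicle, 772 in control R1881, 591 in siNFYA vehicle and 653 in siNFYA R1881, so that these 4 groups stood in the order they have for NFYA. In siKLF5 vehicle RDH11 held 683 CPM, below control vehicle, where NFYA stood at 73.0 against 70.9 CPM. As RDH11 was picked for its correlation over these libraries, a like order follows in part from the choice.

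For NFYB the closest were GLCE (r = 0.962), SRSF10 (a splicing factor, r = 0.949), RAVER2 (r = 0.949), PRAME (r = 0.943) and ASTN2 (r = 0.938), which were all lower in the R1881 groups. GLCE went from 22.1 to 13.4 CPM with control siRNA. For NFYC the highest values were lower, among them IQCG (r = 0.795), RSPH3 (r = 0.791), DNAJC2 (r = 0.759) and RBFA (r = 0.715). Between the subunits themselves r was -0.32 for NFYA and NFYB, -0.32 for NFYA and NFYC and -0.48 for NFYB and NFYC, so none of the pairs rose and fell together.

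Genes around the complex were read from lists chosen with earlier results of these data known. Of 19 tested NF-Y partners and cofactors, such as the SREBP and p53 families, E2F1 and histone acetyltransferases, siNFYA raised 4 in vehicle and lowered 1, against 6.67% and 6.79% of all genes. MYC rose by 0.33 (SE 0.0483, adjusted p = 6.8e-05), KAT2A, a histone acetyltransferase, by 0.24, E2F1, a cell cycle regulator, by 0.21 (adjusted p = 0.0472) and SREBF1, the regulator of lipid synthesis, by 0.23, and ZHX1 fell by 0.16. With R1881, KAT2A rose by 0.29 (adjusted p = 0.0283) and SREBF2, the regulator of sterol synthesis, fell by 0.17 (adjusted p = 0.0089). The list's median was -0.07 in vehicle and -0.02 in R1881, against -0.00 and -0.02 over all genes.

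Of 5 tested histone-fold relatives of NFYB and NFYC, POLE3, a DNA polymerase epsilon subunit, was called with siNFYA in vehicle (0.17, adjusted p = 0.0434) and none with R1881, where 13.5% and 5.96% of all genes were called. Without replicate 3 of siNFYA vehicle, POLE3 was not called. Of 11 tested factors named for CCAAT or related boxes, CEBPB rose by 0.35 in vehicle (adjusted p = 0.00854, edgeR). CUX1 fell by 0.16 in vehicle (adjusted p = 0.0447, edgeR) and was not called without replicate 3 of siNFYA vehicle. NFIB fell in vehicle by 0.28 (adjusted p = 0.0142) and in R1881 by 0.26 (adjusted p = 0.00525, edgeR). The siRNA against KLF5 gave no call in the first of these lists in either treatment.

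Lists of genes with known CCAAT promoters held the motif, for which they were chosen, in most of their windows for 3 of the 4 lists: 13 of 13 cell cycle genes with a window, 9 of 10 endoplasmic reticulum genes and 8 of 9 sterol and lipid genes, against 43.6% of the genes tested with siNFYA. The fourth list, of other genes, had 1 window, without the motif. Their responses to siNFYA were small. In the cell cycle list (14 tested) 4 genes were higher in vehicle, where 6.67% of all genes were, among them CDK1, the mitotic kinase (0.24, adjusted p = 0.00108), TK1, the thymidine kinase (0.24), and PLK1 (0.22), and 2 were lower in R1881, where 3.33% of all genes were, RRM2, a ribonucleotide reductase subunit (-0.31, adjusted p = 0.0439), and CDK1 (-0.25, adjusted p = 0.0225). CDK1 was thus called in opposite directions in the 2 treatments. Without replicate 3 of siNFYA vehicle 2 were higher in vehicle, CDK1 and E2F1, where 5.48% of all genes were. In R1881 that refit called 1 lower, CDK1, where 2.53% of all genes were. The list's median was 0.10 in vehicle and -0.11 in R1881.

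In the sterol and lipid list (14 tested) siNFYA lowered 1 gene in vehicle, TM7SF2, a sterol reductase (-0.17, adjusted p = 0.0186), and 5 in R1881, with 3.33% of all genes lower. Among these were TM7SF2 (-0.23, adjusted p = 0.0089), SREBF2, CYP51A1 (-0.16) and SQLE (-0.17). Without replicate 3 of siNFYA vehicle these counts were 2 in vehicle and 3 in R1881, without CYP51A1 and SQLE. In that refit 7.1% of all genes were lower in vehicle and 2.53% in R1881. Higher in R1881 were 3.22% of all genes, against 2.63% with all libraries. Of 10 endoplasmic reticulum genes, HSPA5 and HSP90B1, chaperones of that compartment, were lower in vehicle by -0.14 and -0.12 and XBP1 was higher (0.19), where 6.79% of all genes were lower and 6.67% higher, with none called in R1881. Of 4 tested other genes with known CCAAT promoters, ASNS, asparagine synthetase, was called with siNFYA. It rose in vehicle by 0.34 (adjusted p = 3.54e-06, edgeR) and in R1881 by 0.14 (adjusted p = 0.0318, edgeR). Without replicate 3 of siNFYA vehicle, 3 endoplasmic reticulum genes were lower and 1 higher in vehicle, and 2 of these other genes were higher. Of all genes, 7.1% were then lower in vehicle and 5.48% higher.

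Under control siRNA, R1881 moved the same lists by far larger amounts: 13 of 14 cell cycle genes were lower (median -1.11), 9 of 10 endoplasmic reticulum genes higher (median 1.05) and 13 of 14 sterol and lipid genes higher (median 0.91), where 32.1% of all genes were higher and 30.8% lower. With siNFYA the counts were the same, with medians of -1.25, 1.03 and 0.84. Over all tested genes with a promoter window, those with CCAAT had a median of -0.01 with siNFYA in vehicle and -0.02 in R1881, and those without had -0.00 and -0.02. Called lower were 7.50% with and 6.79% without the motif in vehicle, and 3.89% and 3.01% in R1881.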

How the data were processed

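The authors deposited estimated counts per gene and, joined in 1 cell, an estimated count, a TPM value and an unlabelled number per gene and transcript; the unlabelled number was not used. FastQC, Trimmomatic, kallisto and DESeq2 are named in the submitters' processing notes, with GRCh38 and without versions. The siNFYA and siKLF5 tables hold the same control libraries.

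Counts were rounded, scaled by TMM and tested with edgeR 4.0.16 (filterByExpr, quasi-likelihood test, Benjamini-Hochberg adjustment over all features, calls at 0.05), with each table's groups in 1 fit and all groups for siNFYA against siKLF5. Usage was tested with diffSpliceDGE. Alternatives used DESeq2 1.42.0 and limma 3.58.1, in R 4.3.3. Shares and ratios were compared by exact permutation, enumerated in Python 3.11.15 with NumPy 2.4.6. Transcript positions came from GENCODE 29. The gene and transcript tests were tested on simulated data.

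The subunits and gene lists were chosen with earlier results of these data known. Named were the subunits, their transcripts with a mean of at least 0.5 TPM, the 5 most correlated genes of each, overlapping genes, and up to 4 called genes per list by adjusted p. E2F1, ZHX1 and SQLE fall outside that rule and were named after their values were seen. Some genes that the rule names are not reported here. Nothing states that replicates came from separate cultures, so p-values measure only the spread between these samples, which may be technical. No pair of replicates agreed within sampling noise (chi-square per degree of freedom 1.32 to 13.2 over 16 pairs). The refit of the lists without replicate 3 of siNFYA vehicle was added after seeing the data. The uncertainty of the isoform split is not in the tables, so transcript p-values are too small where isoforms share sequence.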

Additional observations from a re-analysis of the deposited data

How the results depend on the processing

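The loss of NFYA with siNFYA was called under every alternative run. No paired analysis was possible because a label number marks a single library and none recurs across groups. For NFYA with R1881, library totals gave 0.053, 0.064 and -0.012 (control siRNA, siNFYA, siKLF5), limma on log2(TPM + 0.5) gave 0.14, 0.11 and 0.094, and DESeq2 gave 0.22 with siKLF5, none called. For NFYB with R1881, limma gave -0.35 (control) and -0.36 (siKLF5) and DESeq2 -0.30 (siKLF5), not called. NFYC with R1881 was called lower at -0.20 with library totals (control) and at -0.26 with limma (siKLF5). NFYB to NFYC was called at -0.31 (coding TPM) and -0.40 (counts) for R1881 and at -0.34 (coding TPM) for siNFYA. Leaving out each replicate in turn gave -0.31 to -0.20 and -0.36 to -0.23 for NFYB with R1881 (control, siKLF5), -0.84 to -0.53 for NFYA to NFYB (siNFYA against siKLF5), and -0.45 to -0.27 (R1881) and -0.30 to -0.12 (siNFYA) for NFYB to NFYC. The cause of these shifts was not tested.

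Counts of called genes moved as follows. For the siKLF5 interaction, 2 became 9 (DESeq2), 1 (all libraries in 1 fit), 0 (limma) and 106 (no filter), and 1 to 51 with replicates left out. For the siNFYA interaction, 91 became 141, 59, 2 and 326 under the same settings, and 43 to 264. For siKLF5 with R1881, 176 became 314 (compared groups alone), 36 (limma) and 388 (no filter), and 71 to 304. For siKLF5 with vehicle, 168 became 108 (1 fit), 81 (alone), 3 (limma) and 409 (no filter), and 70 to 434. For siNFYA, 751 became 169 (limma) with R1881 and 1696 became 379 (limma) with vehicle, with 402 to 777 and 1065 to 1825 when replicates were left out. For siNFYA against siKLF5, 494 became 81 (limma) with R1881 and 241 to 578, and 774 became 271 (alone) and 62 (limma) with vehicle and 225 to 1002.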
